A study of Mus musculus with 6 samples.

Results

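The Schlafen genes are a mouse gene family that sits in a cluster on chromosome 11. The genes described here are Slfn1, Slfn2, Slfn3, Slfn4, Slfn5, Slfn8, Slfn9 and the pseudogene Slfn10-ps, 8 of the 44678 gene identifiers in the count data, and they were found by matching their symbols to the Ensembl identifiers through the mouse GENCODE annotation. They were chosen on measured values, since the levels of Slfn8 and Slfn9 in KO and WT libraries were already known, so the differences between genotypes in these genes are given as a description, with no p-value and no test read as evidence. RNA-seq was performed on 3 WT and 3 KO libraries from the spleens of adult mice on the C57BL/6J background, none of them treated. The sequenced cells are labelled as CD8a+ leukocytes, and the KO mice lack a short segment of chromosome 11 that holds both the miR-144 and the miR-451 precursor. WT mice came from a supplier and KO mice from a mutant line, and it is not stated whether the WT animals were littermates, so that genotype and colony of origin cannot be told apart.

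Schlafen proteins share an N-terminal core and are divided by length into group I (Slfn1 and Slfn2), group II (Slfn3 and Slfn4) and group III (Slfn5, Slfn8, Slfn9 and, as a pseudogene, Slfn10-ps), of which only group III carries a C-terminal helicase-like region. The family was first described in developing and resting T cells, where Slfn2 is needed to keep T cells quiescent, and several members are induced by type I interferon. Slfn4 is known mainly from macrophages and other myeloid cells. Type I interferon acts on many of its target genes through a promoter element called the interferon-stimulated response element.

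On GRCm38, the cluster covers chr11:82951349-83215154, a stretch of 263.8 kb that begins 4.88 Mb and ends 5.14 Mb from Mir144. In map order the genes are Slfn5 (82951349 to 82964840, plus strand), Slfn9 (82978390 to 82991830, minus strand), Slfn8 (83002158 to 83020810, minus strand), Slfn10-ps (83028130 to 83040042, minus strand), Slfn2 (83065112 to 83070678, plus strand), Slfn1 (83116849 to 83122670, plus strand), Slfn4 (83175186 to 83190216, plus strand) and Slfn3 (83191330 to 83215154, plus strand). The 3 genes on the minus strand, Slfn9, Slfn8 and Slfn10-ps, are next to each other and closely alike in sequence. Over the aligned coding sequence, Slfn8 and Slfn9 share 2534 of 2733 bases (92.72%). The pseudogene Slfn10-ps is 92.85% identical to Slfn8 and 93.22% identical to Slfn9. The other close pair is Slfn3 and Slfn4, at 95.28%, while Slfn5 shares 63.18% with Slfn8 and 63.60% with Slfn9.

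The sequences below show how alike Slfn8 and Slfn9 are in some places and how different in others, which decides which reads could be given to either gene. The longest stretch that both transcripts hold without a difference is 139 nt, in coding exon sequence at chr11:83003134-83003272 (minus strand, exon 6) for Slfn8 and chr11:82981231-82981369 (minus strand, exon 5) for Slfn9. It is followed here by the 60-nt window of the coding sequence in which the genes differ most, with the 17 differing bases in capitals, taken from GRCm38 at chr11:83003420-83003479 for Slfn8 and chr11:82981517-82981576 for Slfn9, both on the minus strand.
Shared by Slfn8 and Slfn9: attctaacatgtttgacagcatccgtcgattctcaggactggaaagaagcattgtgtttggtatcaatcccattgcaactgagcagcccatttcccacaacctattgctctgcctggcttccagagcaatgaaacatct
Slfn8, divergent window: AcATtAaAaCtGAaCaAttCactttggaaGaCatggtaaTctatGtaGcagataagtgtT
Slfn9, divergent window: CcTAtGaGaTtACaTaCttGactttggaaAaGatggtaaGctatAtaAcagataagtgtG
A read that lies inside the first stretch matches both transcripts equally well.

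The promoters of Slfn8 and Slfn9 are shown because these are the members whose levels differ most between the genotypes. RefSeq (GRCm38.p6) gave promoters for 7 of the 8 members, each with 250 bases before and 50 after the start, and 8 promoters in all since Slfn8 has more than one start. The 250 bases before the outermost Slfn8 start (chr11:83020811-83021060, minus strand) and before the Slfn9 start (chr11:82991831-82992080, minus strand) are printed with the match to the interferon-stimulated response element in capitals. The letters searched were GAAANNGAAA on both strands, and both matches are on the opposite strand of the printed one.
Slfn8 promoter: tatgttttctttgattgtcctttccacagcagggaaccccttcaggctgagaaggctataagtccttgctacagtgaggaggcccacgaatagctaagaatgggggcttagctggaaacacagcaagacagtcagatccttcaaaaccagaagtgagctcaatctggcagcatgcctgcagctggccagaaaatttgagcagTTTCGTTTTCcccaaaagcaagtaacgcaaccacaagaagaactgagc
Slfn9 promoter: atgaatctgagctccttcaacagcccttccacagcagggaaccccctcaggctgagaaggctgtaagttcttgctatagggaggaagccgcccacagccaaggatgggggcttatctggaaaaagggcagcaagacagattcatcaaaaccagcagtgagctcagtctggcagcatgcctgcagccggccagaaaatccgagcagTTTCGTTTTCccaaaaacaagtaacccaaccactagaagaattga
The same 10 bases begin 48 bases before the Slfn8 start and 45 bases before the Slfn9 start, and the 300-base promoters are 84.93% identical over 292 aligned bases. Slfn5 also holds a match, 155 bases before its start, so that 3 of the 7 members with a promoter hold the letters. The Slfn8 promoters overlap and hold the same site, so these are 4 of 8 promoters but 3 sites, and 3.44% of the 32851 mouse promoters of this length hold the letters. No match was found in the promoters of Slfn1, Slfn2, Slfn3 and Slfn4. A match describes the letters only and shows no binding.

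The KO mice lack miR-144 and miR-451, so the mature miRNAs are printed from RefSeq with the seed (bases 2 to 8) in capitals.
miR-144-3p: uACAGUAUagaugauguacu
miR-144-5p: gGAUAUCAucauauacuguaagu
miR-451a: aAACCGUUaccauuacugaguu
Matches to the seed were searched in the annotated 3'-UTRs of the 7 protein-coding members. A match for miR-144-3p was found in Slfn5 alone, at chr11:82963095-82963101 on the plus strand, while 12.6% of the 21028 mouse genes with a 3'-UTR hold one. No member held a match for miR-144-5p, which 6.56% of genes do, or for miR-451a, which 1.83% of genes do.
Slfn5 3'-UTR, match in capitals: atattagcaaaATACTGTaaaaaaataaa
The precursors themselves could not be used to check the labels, because Mir144 and Mir451a had 0 counts in all 6 libraries, WT and KO alike.

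The values deposited by the authors were taken to be expected counts, since many hold fractions. Such counts are estimates, and they can hold fractions because a read that fits several genes can be divided among them. Library totals lay between 8143971 and 8876570, and 3 counts, the smallest amount taken as detected, corresponded to 0.338 to 0.368 CPM (counts scaled to a common library total). This floor reflects counting error alone. All levels below are CPM after TMM scaling, which corrects the totals for differences in composition, given as mean ± SD of 3 libraries per genotype, and libraries are named WT1 to WT3 and KO1 to KO3. Nothing in the labels says that the libraries of a genotype came from separate mice, so that the SD and the test measure the spread between these libraries. The study introduces its transcriptome data with dendritic cells, while the labels give CD8a+ leukocytes, and the label was therefore checked with marker genes. The 9 T cell markers summed to 2341 to 4408 CPM over the 6 libraries and the 8 conventional dendritic cell markers to 227 to 311 CPM. T cell transcripts were thus the more abundant of these 2 kinds. The 7 B cell markers summed to more than the T cell markers in KO2 (2926 against 2341 CPM) and to less in every other library. Cd8a was at 904 ± 185 CPM in WT and 732 ± 279 CPM in KO, and all 9 T cell markers were detected, but so were all 7 B cell, all 6 monocyte and all 8 neutrophil markers. The libraries are therefore treated as bulk mixtures, in which fewer cells of a type and less RNA per cell cannot be told apart.

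Among the group III genes, Slfn9 was the member with the largest difference between genotypes. It was at 9.81, 12.8 and 5.96 CPM in WT1, WT2 and WT3 and at 85.0, 99.6 and 102 CPM in KO1, KO2 and KO3. All KO libraries were far above all WT libraries, with means of 9.52 ± 3.42 and 95.5 ± 9.23 CPM, a 10.04-fold difference (log2 fold change 3.32, SE 0.23). In deposited counts the same gene had 86, 112.382 and 48 in WT and 734.251, 828.368 and 891.069 in KO.

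Slfn8, the next gene in the cluster, was at 126, 129 and 108 CPM in WT and at 32.2, 35.6 and 36.0 CPM in KO. Every KO library was below every WT library, with means of 121 ± 11.4 and 34.6 ± 2.09 CPM, 3.49-fold lower in KO (log2 fold change -1.80, SE 0.10). In deposited counts Slfn8 had 1100, 1128 and 867.001 in WT and 277.847, 295.535 and 313.75 in KO.

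Slfn10-ps, the pseudogene between Slfn8 and Slfn2, was at 10.4, 16.3 and 12.3 CPM in WT and at 15.7, 14.6 and 21.2 CPM in KO. The groups overlapped, with means of 12.99 ± 3.03 and 17.2 ± 3.54 CPM (log2 fold change 0.40, SE 0.22). Slfn5, the group III member at the end of the cluster, was at 85.3, 85.3 and 78.1 CPM in WT and at 94.1, 103 and 99.97 CPM in KO. Its KO libraries were all above its WT libraries, but by a small margin, with means of 82.9 ± 4.21 and 98.9 ± 4.40 CPM (log2 fold change 0.25, SE 0.08). Slfn5 also had the tightest replicates of the family, since 6.63% of tested genes had a smaller SD of log2 CPM within genotypes. The antisense gene Slfn5os, which overlaps it, had 0 counts in every library.

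By mean CPM in each genotype, the group I genes were the most abundant members, although in KO2 Slfn4 (123 CPM) was above Slfn1 (116 CPM). Slfn2, which keeps T cells quiescent, was at 315, 236 and 268 CPM in WT and at 250.04, 250.20 and 250.33 CPM in KO. The KO values lay inside the WT range, with means of 273 ± 39.8 and 250.2 ± 0.143 CPM (log2 fold change -0.12, SE 0.11). Slfn1 was at 154, 160 and 148 CPM in WT and at 122, 116 and 158 CPM in KO. KO1 and KO2 were below all WT libraries and KO3 was among them, with means of 154 ± 5.67 and 132 ± 22.5 CPM (log2 fold change -0.22, SE 0.12).

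The group II genes differed in level and in spread. Slfn4, the myeloid member, was at 67.9, 37.8 and 29.2 CPM in WT and at 65.2, 123 and 36.6 CPM in KO. High values were found in WT1, KO1 and KO2 and low values in WT2, WT3 and KO3, so the genotypes overlapped, with means of 44.9 ± 20.3 and 74.9 ± 43.9 CPM (log2 fold change 0.73, SE 0.44). Without KO2 the log2 fold change was 0.18, and without WT1 it was 1.16. Slfn3 was the least abundant member, at 3.88, 5.59 and 3.47 CPM in WT and at 5.67, 5.77 and 5.15 CPM in KO. WT2 was inside the KO range and the other WT libraries were below it, with means of 4.31 ± 1.12 and 5.53 ± 0.333 CPM (log2 fold change 0.36, SE 0.27).

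**Figure D1:**
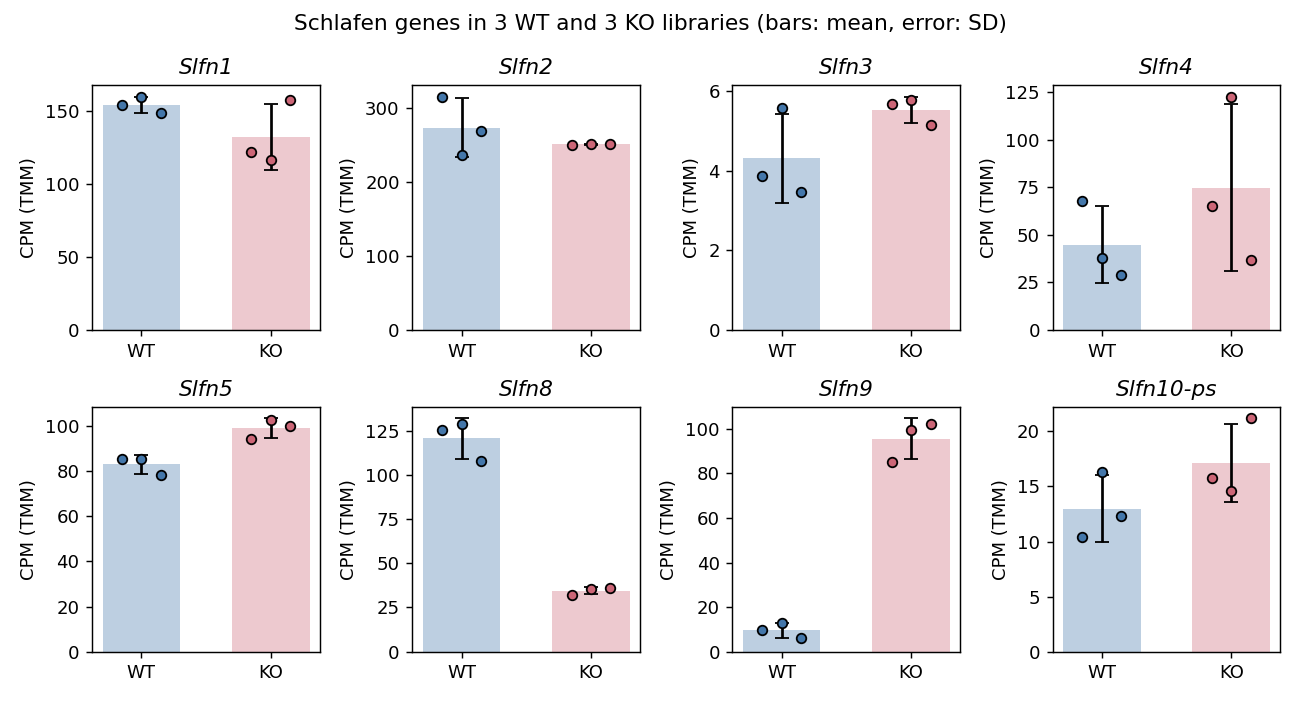
Level of each Schlafen gene in CPM after TMM scaling (vertical axis, a separate scale for each gene) in 3 WT (blue) and 3 KO (red) libraries. Points are libraries in the order of their numbers, bars are means and error bars are SD. Slfn9 is near the bottom of its axis in WT (9.52 CPM) and at 95.5 CPM in KO, Slfn8 shows the opposite, and Slfn4 is scattered in both genotypes.

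In the edgeR quasi-likelihood fit over 13024 genes, 0.0307% of genes (4 of 13024) were called at an adjusted p under 0.05. All 8 Schlafen genes entered the fit, and the calls included 2 of them, Slfn9 (higher in KO) and Slfn8 (lower in KO). The values of KO and WT libraries did not overlap in 3 members, Slfn5, Slfn8 and Slfn9, beside 11.5% of all tested genes. Because the members were chosen on this very comparison, nothing is read from these counts. Across the family 5 members had a higher and 3 a lower mean in KO.

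Levels of different genes were compared per kb of exon, because the annotated exons range from the short group I to the long group III transcripts. In WT, the order in CPM per kb was Slfn2 (164), Slfn1 (82.6), Slfn8 (29.5), Slfn5 (13.1), Slfn4 (11.3), Slfn10-ps (3.59), Slfn9 (1.60) and Slfn3 (1.27). The ranges over the 3 WT libraries overlapped between Slfn5 and Slfn4 and between Slfn9 and Slfn3, so these neighbours in the order did not differ beyond their spread. In KO, the order in CPM per kb was Slfn2 (150), Slfn1 (70.7), Slfn4 (18.9), Slfn9 (16.0), Slfn5 (15.6), Slfn8 (8.45), Slfn10-ps (4.74) and Slfn3 (1.62). There, the ranges of Slfn4, Slfn9 and Slfn5 overlapped and those of the other neighbours did not. Slfn2 and Slfn1 therefore led the family in both genotypes. Slfn8 was above Slfn9 in all WT libraries and below it in all KO libraries.

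The fractions in the deposited values show which genes divided reads. Slfn8, Slfn9 and Slfn10-ps were each not whole in KO1, KO2 and KO3, yet their sum was whole in each, at 1148, 1245 and 1390 counts (within 0.01). No pair of the 3 genes summed to a whole number in any KO library. In WT1 and WT3 each of the 3 genes was whole alone, with sums of 1277 and 1014 counts. In WT2, Slfn8 was whole and Slfn9 and Slfn10-ps were not, with 112.382 and 142.618 counts that summed to 255. Reads were therefore divided among all 3 genes in every KO library, between Slfn9 and Slfn10-ps in WT2, and in no visible amount in WT1 and WT3. How many reads were divided is not shown by the values.

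The sum of Slfn8, Slfn9 and Slfn10-ps differed little between genotypes. It was at 146, 158 and 126 CPM in WT and at 133, 150 and 159 CPM in KO, ranges that overlap, with means of 143 ± 16.1 and 147 ± 13.3 CPM. When the 3 genes were counted as 1 feature before the fit, the log2 fold change was 0.041 (SE 0.11). Within that sum, the share of Slfn8 was 86.1%, 81.6% and 85.5% in WT and 24.2%, 23.7% and 22.6% in KO. The share of Slfn9 was 6.74%, 8.13% and 4.73% in WT and 64.0%, 66.5% and 64.1% in KO. The share of Slfn10-ps overlapped, at 7.13%, 10.3% and 9.76% in WT and 11.8%, 9.73% and 13.3% in KO. The count ratio of Slfn9 to Slfn8 was thus 0.0782, 0.0996 and 0.0554 in WT and 2.64, 2.80 and 2.84 in KO.

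**Figure D2:**
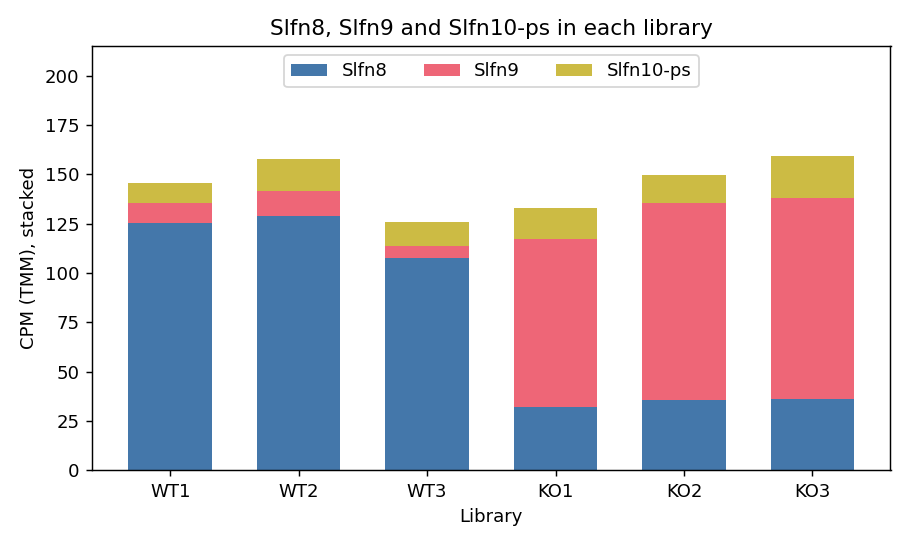
Levels of Slfn8 (blue), Slfn9 (red) and Slfn10-ps (yellow) stacked for each of the 6 libraries, in CPM after TMM scaling (vertical axis). The stacks reach 126 to 158 CPM in WT and 133 to 159 CPM in KO, mostly Slfn8 in WT and mostly Slfn9 in KO.

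How far the 3 genes could share reads was read from their transcripts in GENCODE M21. Of all 31-base words of its transcripts, Slfn8 shared 26.7% with other members, Slfn9 shared 19.8% and Slfn10-ps shared 32.4%. At 100 bases, the shares were 3.39%, 3.71% and 7.84%. In the transcript taken for each gene, Slfn9 shared 35.8% of its coding words but 5.37% of the words of its long 3'-UTR, which has 2786 nt. Slfn8 shared 29.8% of its coding words and 26.3% of those of its 3'-UTR, which has 921 nt. Most positions of both genes are thus unique at these lengths, and the read length and the aligner are not given in the sources used here. The part of read division in the difference between genotypes was not tested.

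**Figure D3:**
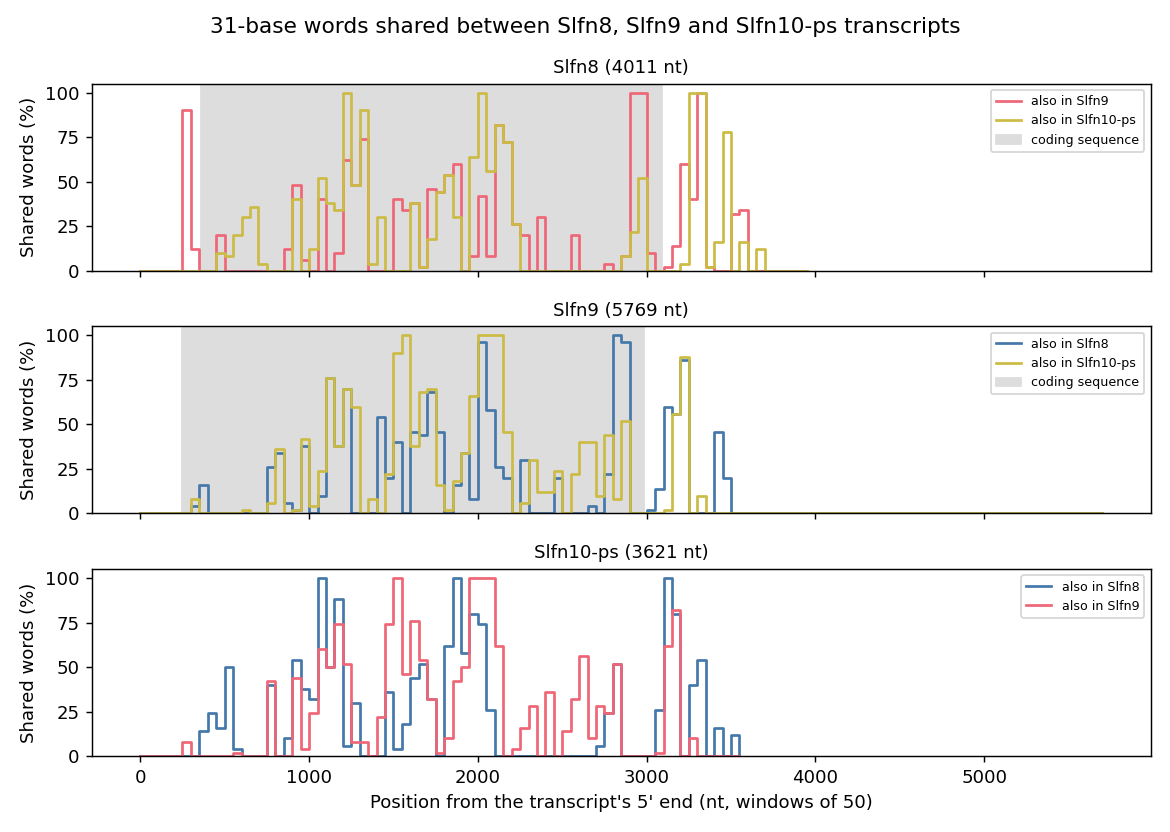
Share of 31-base words (vertical axis, percent of words that start in each 50-nt window) that also occur in the transcripts of the other 2 genes, along the Slfn8, Slfn9 and Slfn10-ps transcripts (horizontal axis, nt from the 5' end). Grey marks the coding sequence. Shared words lie in blocks of the coding sequence and the first part of the 3'-UTR, and for Slfn8 also at the end of the 5'-UTR (15.6% of its 5'-UTR words), and the last part of the 2786-nt Slfn9 3'-UTR shares none.

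Slfn3 also had divided reads. Its value was not whole in all 6 libraries, and it summed to a whole number with Gm11427, a pseudogene at chr11:83224454-83260960, in 6 of 6 libraries. Its sum with Slfn4, the member closest to it in sequence, was whole in 0 of 6. Slfn3 and Gm11427 together were at 10.9 ± 2.43 CPM in WT and 13.2 ± 0.515 CPM in KO (log2 fold change 0.27, SE 0.20, a sum added after the data were seen). Slfn2 was not whole in 4 libraries, and Slfn1, Slfn4 and Slfn5 in 1 library each. The group I and group II genes counted as 1 feature had a log2 fold change of -0.042 (SE 0.11). All 8 members together were at 702 ± 62.0 CPM in WT and 709 ± 39.1 CPM in KO, a log2 fold change of 0.013 (SE 0.10, also added after the data were seen).

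The relatives outside these 8 genes were low. Slfn14, a group III gene on the same chromosome known from platelets and reticulocytes, had 14, 2 and 3 counts in WT and 3, 30 and 2 counts in KO. Slfnl1, a Schlafen-like gene on chromosome 4, had 4 counts in KO1 and 0 in the other libraries.

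The Schlafen cluster has 50 other annotated genes within 500 kb of its ends, of which 20 were tested and 19 had 0 counts in all libraries. None of the 20 was called by the edgeR quasi-likelihood test with Benjamini-Hochberg adjustment, and 3 had an unadjusted p under 0.05, beside 814 of all 13024 tested genes. Their median log2 fold change was 0.082, against 0.003 over all tested genes, with 12 higher and 8 lower in KO, and the genotypes did not overlap in 5, beside 11.5% of all tested genes. The most abundant neighbours were Ccl5, a chemokine of effector T cells, Ap2b1, a subunit of the clathrin adaptor, and Taf15, an RNA-binding protein. Ccl5 was at 434 ± 125 CPM in WT and 296 ± 60.1 CPM in KO (log2 fold change -0.55, SE 0.22, adjusted p = 0.786 by edgeR). Ap2b1 had a log2 fold change of -0.09 (SE 0.08) and Taf15 one of -0.11 (SE 0.10).

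AA465934 and Gm11425 were chosen after their values were seen. AA465934, an annotated locus beyond Slfn3, had 2, 12 and 4 counts in WT and 88, 82 and 67 counts in KO. Its KO libraries were all above its WT libraries (log2 fold change 3.69, SE 0.49), with an adjusted p of 0.150 by edgeR. Gm11425, a locus between Slfn8 and Slfn10-ps, had 2, 13.001 and 5.006 counts in WT and 0 in each KO library, and its level was too low to be tested.

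**Figure D4:**
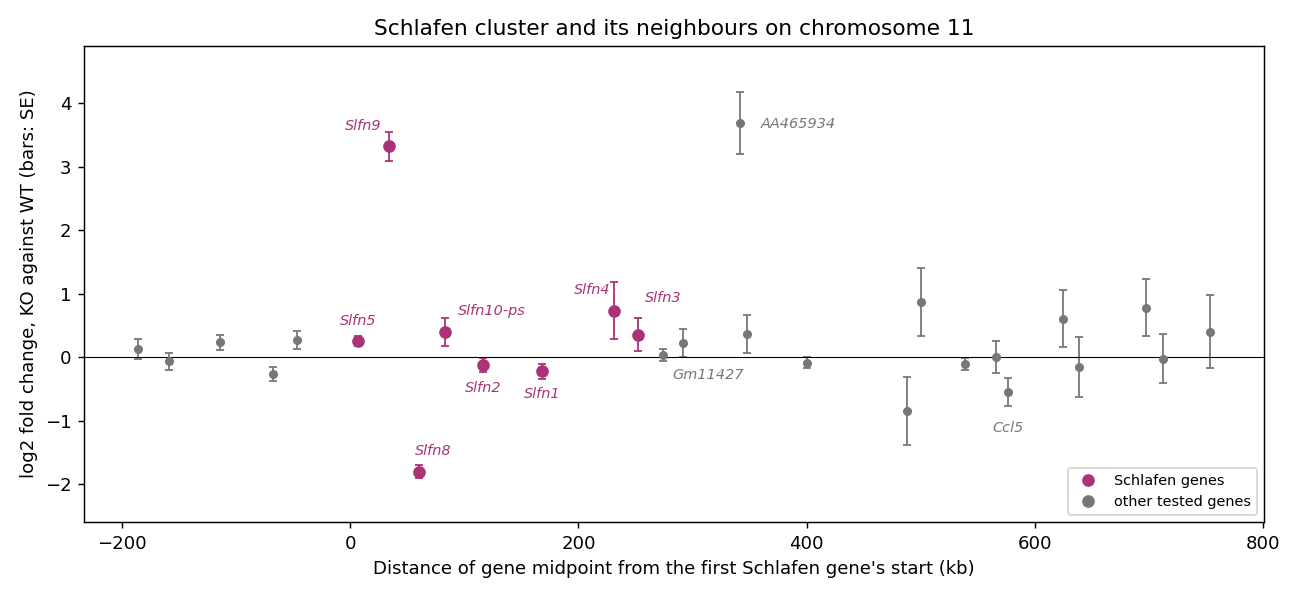
Log2 fold change of KO against WT (vertical axis, error bars are SE) for the 8 Schlafen genes (purple) and the 20 tested neighbours (grey), placed by the distance of the gene's midpoint from the start of Slfn5 in kb (horizontal axis). Slfn9 (3.32) and Slfn8 (-1.80) lie next to each other, with Slfn5 (0.25) and Slfn10-ps (0.40) on either side, and AA465934 (3.69) lies beyond Slfn3.

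Since several Schlafen genes are induced by interferon, the interferon pathway was described from hand-written lists. All 40 interferon-stimulated genes were tested. Of these, 1 was called higher in KO and 0 lower by the edgeR quasi-likelihood test, beside 0.0307% of all tested genes. An unadjusted p under 0.05 was found for 3 of the 40, beside 814 of all 13024 tested genes, and the genotypes did not overlap in 1, beside 11.5%. In all, 26 had a higher and 14 a lower value in KO, and the median log2 fold change was 0.058, against the same 0.003. The called gene was Xaf1, which encodes an antagonist of the apoptosis inhibitor XIAP, at 47.8, 47.2 and 38.7 CPM in WT and 108, 132 and 132 CPM in KO. Its KO libraries were all above its WT libraries (log2 fold change 1.47, SE 0.12, adjusted p = 0.00791 by edgeR). The list was written with earlier results known, so the call of Xaf1 is no independent evidence. Abundant genes of the list were Samhd1, a dNTP hydrolase, and Sp100, a nuclear body protein. Their log2 fold changes were 0.08 (SE 0.10) for Samhd1 and 0.002 (SE 0.10) for Sp100, and neither passed the test.

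Of the 20 interferon receptor and signaling genes, 20 were tested and 0 were called by edgeR, with 3 at an unadjusted p under 0.05, beside 814 of all 13024 tested genes. The median log2 fold change was -0.023, with 9 higher and 11 lower. The kinase Jak1 was at 999 ± 83.7 CPM in WT and 921 ± 97.0 CPM in KO, and the factor Irf8, which is needed for dendritic cells and monocytes, was at 258 ± 32.8 and 355 ± 59.0 CPM (adjusted p = 0.712 by edgeR). Of the 23 genes of T cell quiescence, the state in which Slfn2 acts, 22 were tested and 0 were called by edgeR, with 0 at an unadjusted p under 0.05. Their median log2 fold change was -0.053. The most abundant were Btg1, Klf2 and Ets1, with log2 fold changes of -0.03 (SE 0.10), -0.15 (SE 0.10) and -0.15 (SE 0.09).

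Marker genes of other cells moved with some members, across libraries of both genotypes. The 8 neutrophil markers summed to 971, 322 and 274 CPM in WT1, WT2 and WT3 and to 1022, 1164 and 389 CPM in KO1, KO2 and KO3. The 6 monocyte markers summed to 1722, 1057 and 1134 CPM in WT and to 1715, 1795 and 1076 CPM in KO. Both sums were thus high in WT1, KO1 and KO2 and low in WT2, WT3 and KO3, the same libraries in which Slfn4 was high and low. The 7 B cell markers summed to between 1453 and 2528 CPM in WT and between 1256 and 2926 CPM in KO, high in the same 3 libraries. The 9 T cell markers summed to 3320, 4408 and 4262 CPM in WT and to 3029, 2341 and 4219 CPM in KO, with the lowest sums in KO1 and KO2, where Slfn1 was also lowest. WT1 had the next lowest T cell sum, but its Slfn1 (154 CPM) was among the high values. The part of these cells in the levels of Slfn4 and Slfn1 was not tested. The spread of Slfn4 within genotypes was larger than that of 96.0% of tested genes, and none of these markers was called.

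In KO1, KO2 and KO3, of which KO3 had low neutrophil and monocyte sums, Slfn9 was at 85.0, 99.6 and 102 CPM and Slfn8 at 32.2, 35.6 and 36.0 CPM. The summed level of the 8 conventional dendritic cell markers lay between 227 and 241 CPM in WT and between 296 and 311 CPM in KO. These sums did not overlap between genotypes, as was the case for Slfn8, Slfn9 and Slfn5, while the levels of the marker Itgax did. All 8 markers had a higher mean in KO, as did all 7 B cell, all 7 red pulp macrophage, all 8 neutrophil and all 8 erythroid markers, 5 of 6 monocyte and 0 of 9 T cell markers. So did 4 of 6 natural killer cell, 3 of 4 CD4 T cell and 1 of 5 tested plasmacytoid dendritic cell markers. In all of these lists, 0 markers were called by edgeR. The 7 red pulp macrophage markers were at 393 to 600 CPM in WT and 514 to 1443 CPM in KO, and the 8 erythroid markers at 239 to 804 and 431 to 2593 CPM. The 6 natural killer cell markers were at 180 to 312 CPM in WT and 201 to 297 CPM in KO, the 4 CD4 T cell markers at 89.6 to 148 and 77.6 to 146 CPM, and the 6 plasmacytoid dendritic cell markers at 216 to 224 and 204 to 222 CPM. No marker of any list was at 0. The part of any of these cell types in the levels of Slfn8, Slfn9 and Slfn5 was not tested.

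**Figure D5:**
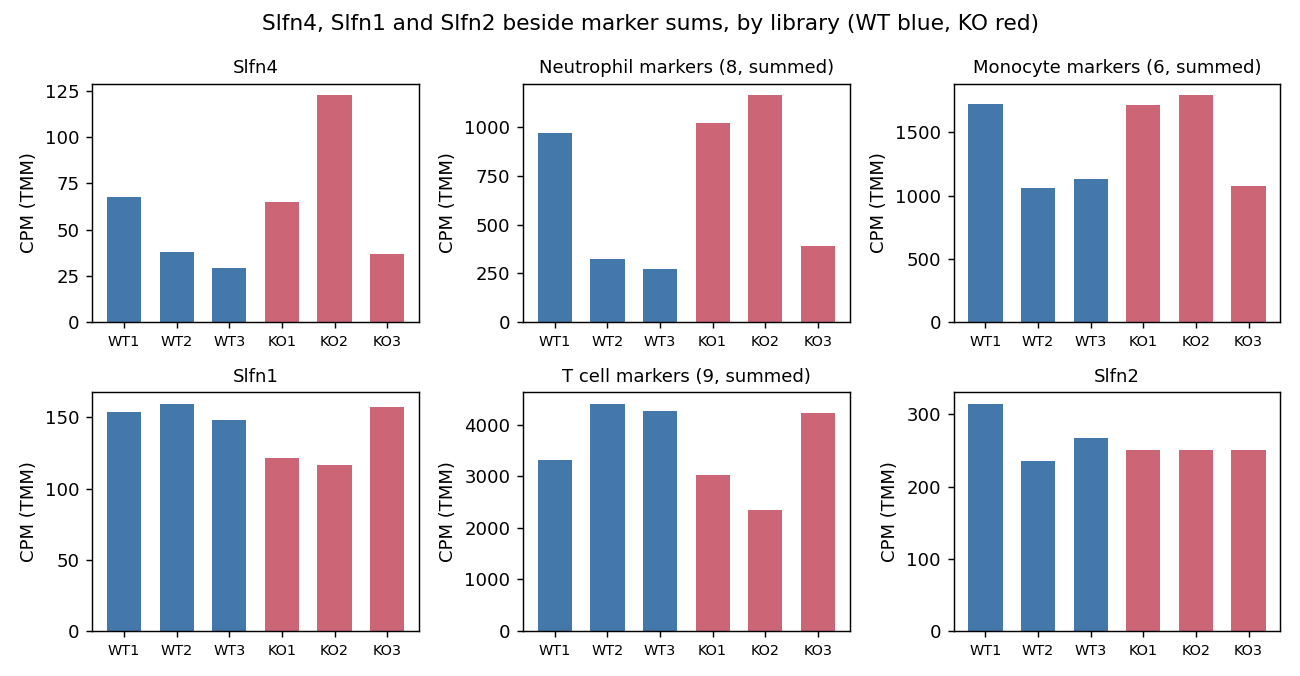
Levels of Slfn4, Slfn1 and Slfn2 beside the summed levels of 8 neutrophil, 6 monocyte and 9 T cell markers in each library, in CPM after TMM scaling (vertical axis). Blue bars are WT and red bars are KO libraries. Slfn4 and the neutrophil and monocyte sums are high in WT1, KO1 and KO2. Slfn1 and the T cell sum are low in KO1 and KO2, while in WT1 the T cell sum is low and Slfn1 is not. Slfn2 is at 250.04 to 250.33 CPM in KO.

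The genes most like each member were found by Pearson's r of log2 CPM over the 6 libraries, which all share the 2 genotypes, so these values are a description. They are the highest values picked from all tested genes over only 6 libraries. Every member had such high values, whether or not it differed between genotypes. For Slfn9 they were Ctnnd2 (r = 0.995), 2810013P06Rik (0.994) and Xaf1 (0.993). For Slfn8 they were Bcorl1 (0.998), Plekha3 (0.998) and 1700016P03Rik (0.996). For Slfn5 they were Gm16568, Specc1l and Ezh2 (0.987 to 0.992), and for Slfn10-ps Dpy19l1, Cflar and Xrn1 (0.986 to 0.992). For Slfn4 they were Rel (0.998), Sh3glb1 (0.998) and Il1r2 (0.996), of which Rel is an NF-kB subunit and Il1r2 the decoy receptor of interleukin-1. For Slfn1 they were Rpl29, Zdhhc20 and Khdc4 (0.988 to 0.995), for Slfn2 Dhrs7b, Tma7 and Tmem138 (0.977 to 0.982), and for Slfn3 Ubr3, Ubtd2 and Rfc5 (0.975 to 0.984). No gene was listed for more than one member. Between members, r was -0.958 for Slfn8 and Slfn9, 0.961 for Slfn5 and Slfn9, and -0.766 for Slfn1 and Slfn4.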

How the data were processed

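The data were 3 WT and 3 KO RNA-seq libraries (spleen CD8a+ leukocytes, SMARTER mRNA kit). The deposited values were taken to be expected counts, since many hold fractions, for 44678 Ensembl identifiers. The submitters' processing notes name GRCm38 and mm10, and the aligner, the counter, the read length and the use of strand are not given in the sources used here. Positions and transcripts were taken from GENCODE M21 (GRCm38), which holds 98.75% of the identifiers, and promoters and miRNAs from RefSeq.

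Expected counts were rounded and fitted in R 4.3.3 with edgeR 4.0.16 (TMM, filterByExpr at its minimum of 10 counts and total of 15, quasi-likelihood test of KO against WT, Benjamini-Hochberg threshold 0.05). TMM factors were between 0.989 and 1.01. Libraries of a genotype differed by more than counting noise (chi-square per degree of freedom 6.55 to 23.5), so none was counted as a copy. Alternatives were DESeq2 1.42.0, limma voom 3.58.1, library totals alone, other filters, counts rounded down, a replicate block, summed paralogs and each library left out in turn. Sequences were compared in Python 3.11.15 with Biopython 1.88.

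The members and lists were chosen with earlier results of these data known. Named were all 8 members, Slfn14, Slfnl1, Mir144 and Mir451a, the 3 most abundant and every called gene of each list (of which 1 is not reported here), and the 3 genes most correlated with each member.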

Additional observations from a re-analysis of the deposited data

How the results depend on the processing

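As a description only, since they were chosen on this comparison, Slfn8 and Slfn9 had log2 fold changes of -1.89 to -1.75 and 3.06 to 3.59 when 1 library was left out. Counted as 1 feature, Slfn8, Slfn9 and Slfn10-ps had a log2 fold change of 0.041 (SE 0.11). That is the value of the sum, in which the lower Slfn8 and the higher Slfn9 of KO offset each other. Over all genes, 4 were called, against 58 with DESeq2, 12 with no filter on low counts and 9 with the replicate block. Leaving out 1 library gave 2 to 94 calls, 94 without KO3 and 2 without WT1 or WT3, and the cause was not tested. Same-numbered WT and KO libraries had r of -0.0101, -0.199 and 0.111 between their deviations from the genotype means. Pairs with different numbers reached 0.293 (WT1 and KO2) and -0.265 (WT1 and KO3). These values gave no sign of pairing by number, but with 3 libraries per genotype they cannot exclude it. The median log2 fold changes of the lists lay near 0. The neighbours' median was 0.0131 with no filter, and with 1 library left out it was 0.0499 to 0.1994. The range with 1 library left out was -0.0982 to 0.0119 for interferon receptors and signaling, -0.007 to 0.1108 for interferon-stimulated genes and -0.1337 to -0.0063 for quiescence, with a change of sign without KO2 for the signaling list and without KO2 or WT3 for the stimulated genes. Leave-one-out values were 0.18 to 1.16 for Slfn4, 0.20 to 0.60 for Slfn10-ps, 0.21 to 0.58 for Slfn3, 0.20 to 0.27 for Slfn5, -0.39 to -0.14 for Slfn1 and -0.22 to -0.011 for Slfn2, the last without WT1. Depth limits Slfn3 most, which rested on 28.1 to 49.4 counts per library.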
